A study of Mus musculus with 8 samples.

Results

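Genes of adipose progenitors and fibroblasts were followed in the inguinal fat pad, a subcutaneous white fat depot, of Lsd1 knockout mice and their controls. The product of Kdm1a, Lsd1, removes methyl groups from histones. The set held 40 genes out of 23360 in the files. They were listed by name as markers and secreted products of adipose stromal cells, a rule that names no measured value, though the list was drawn up with earlier results of these data known. Each gene was matched to the RefSeq accession of its row, 1 of them (Wisp2, now Ccn5) through an alias, and all 40 passed the filter on low values. RNA was sequenced in 4 Lsd1 knockout and 4 control samples, all from animals 6 weeks old. The knockouts came from Lsd1 floxed mice crossed to Adipoq-Cre mice, and the controls were Lsd1 floxed mice, so both groups carry floxed Lsd1. Adipoq-Cre is driven by the adiponectin promoter, which is active in adipocytes. Most of the listed genes are known as products of stromal cells, not of adipocytes. Among the samples there was none with Adipoq-Cre and intact Lsd1, so what the transgene does by itself and what the deletion does cannot be told apart. Strain and sex are not given in the labels, and neither is it stated that each library came from a separate mouse, so the p-values rest on the spread among samples that may be technical replicates.

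Fat pads contain, beside adipocytes and blood vessels, a stroma of fibroblast-like cells that carry the receptor Pdgfra. In mouse subcutaneous fat some of these cells lie in the connective tissue around the pad and carry Dpp4 and Pi16. They give rise to preadipocytes that carry Icam1, and to cells that carry the tissue factor gene F3 and can hold back adipocyte formation. TGF-beta signalling keeps Dpp4+ cells undifferentiated, and BMP4 favours commitment to the adipocyte lineage. The same stroma lays down the matrix of the pad, which is built of collagens, elastic microfibrils, fibronectin and small proteoglycans.

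The libraries held 25671837 to 32442724 reads. The deposited values were read counts multiplied by 1 factor per library, called scaled reads here. Log2 fold changes (knockout minus control) were taken of log2(value + 1), and so understate the change of genes with low values. Kdm1a, which encodes Lsd1, had 547 to 581 in knockouts and 685 to 799 in controls (log2 fold change -0.36, SE 0.075, 95% interval -0.53 to -0.19, limma adjusted p = 0.0498, n = 4 per group) and was lower in the knockout. The call held in 7 of 25 alternatives and in none of the 8 that left out 1 library (limma adjusted p 0.0593 to 0.158). Of 14591 genes tested, 187 were higher and 52 lower in the knockout (limma, adjusted p under 0.05), 239 in all. That count was 91, 429 and 71 when knockout replicates 2, 3 and 4 were left out in turn, and 135 and 138 when control replicates 1 and 4 were. Libraries differed in the RNA of markers of tissue other than fat. The summed level of 11 skeletal muscle markers was 200377, 192170, 13093 and 115724 scaled reads in knockout replicates 1 to 4, against 24807, 29357, 38524 and 8657 in control replicates 1 to 4, so it was low in knockout replicate 3 alone among the knockouts. The keratin genes Krt5 and Krt14 had 82.2 to 237 and 39.7 to 137 scaled reads in knockout replicates 1 and 2 and under 1 in the other 6 libraries. Krt17 was also highest there (40.4 and 10.3), while Krt18 and Epcam, of the same list of mammary epithelial markers, were not. Krt18 was at most 9.73, in knockout replicate 3, and Krt8 at most 3.27 in any library. Epcam had 25.6 and 31.6 in knockout replicates 1 and 2, against 32.3 in knockout replicate 3 and 38.7 in control replicate 3. Of 12 mammary epithelial markers 3 passed the filter on low values and Wap was at 0 in every library. The 11 adipocyte markers summed to 453267 to 496876 in knockouts and 547884 to 694943 in controls, and 10 of them had a negative log2 fold change, 1 (Cidec) with a call. Mesothelial markers, 6 in all, summed to 57.1 to 108 in knockouts and 66.1 to 108 in controls, with Msln, Upk3b, Wt1 and Upk1b at 0 in some libraries. All 12 B cell and lymph node markers had a positive log2 fold change, none of them called, and summed to 13427 to 18022 in knockouts and 8958 to 17935 in controls. Macrophage markers (5 of 6 positive) summed to 14246 to 17654 in knockouts and 12509 to 15288 in controls, mural cell markers (1 of 8 positive) to 7931 to 12064 in knockouts and 8810.4 to 10428 in controls and Schwann cell markers (3 of 6 positive, with S100b called higher) to 6027 to 6984 in knockouts and 4624 to 6716 in controls. In a whole fat pad, fewer cells of a type and less RNA per cell cannot be told apart. Whether the muscle and keratin RNA came from other tissue in the sample or from the fat itself was not tested.

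The set spanned a wide range of levels. Per kilobase of transcript, Gsn, which encodes the actin-severing protein gelsolin, was the highest, at 60057 in knockouts and 57529.6 in controls (scaled reads per kilobase, group means). Dcn, the collagen-binding proteoglycan decorin, followed at 11732 in knockouts and 10315 in controls. Dpt, the matrix protein dermatopontin, stood at 6977 in knockouts and 5241 in controls, and Ly6a, the Sca-1 surface antigen used to sort mouse progenitors, at 4547 in knockouts and 4229 in controls. Pi16, a peptidase inhibitor that marks fibroblasts of the Dpp4+ kind, stood at 3373 in knockouts and 2735 in controls, far above Dpp4 itself (340.5 in knockouts and 295 in controls). These 5 leading genes kept the same order in both genotypes. In controls Gsn lay above 99.96% of the tested genes with a known transcript length, Pi16 above 98.1%, Dpp4 above 72.7% and Pdgfra above 72.0%. At the low end, Dlk1, the preadipocyte surface protein Pref-1 that is shut off during adipocyte differentiation, had 21.8 in knockouts and 15.8 in controls per kilobase, and the transcription factor gene Creb5 had 7.05 in knockouts and 5.23 in controls. Ly6a and Ly6c1 belong to a family of similar neighbouring genes on chromosome 15, so their reads are uncertain.

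**Figure D1:**
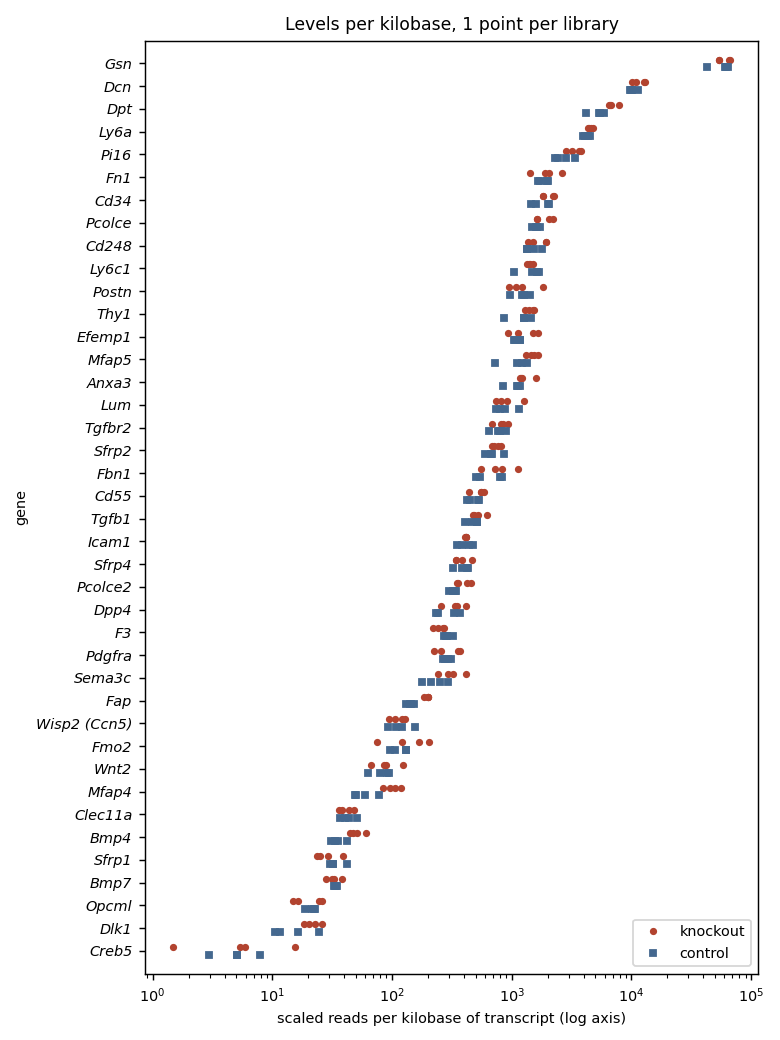
Levels of the 40 genes on a log axis of scaled reads per kilobase of transcript, with 1 point per library (circles, knockout; squares, control) and genes ordered by the control mean. The genes run from Creb5 (7.05 in knockouts and 5.23 in controls, means) to Gsn (60057 in knockouts and 57529.6 in controls), and for most genes the points of both genotypes lie over each other.

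Most of the progenitor and fibroblast genes did not pass the test between genotypes. Of the 40 genes 1 was called, Fap, against 1.28% of all tested genes called as higher, and 0 were called as lower, against 0.356% of all (limma, n = 4 per group). With an unadjusted p under 0.05 there were 8 of 40, against 14.5% of all tested genes. The edgeR test on recovered reads called 1 (Fap). Over all tested genes its count lay within 1.5 times of the 239 called by limma. DESeq2 called 3 (Fap, Mfap4 and Dpt), where it called 5.32% of all genes. The signs were uneven: 32 of the 40 had a positive log2 fold change, as did 54.6% of all tested genes, and the median was 0.15 against 0.023 over all tested genes. The estimated fold stayed under 1.5 in either direction for 39 of the 40, all but Mfap4. The 95% interval lay wholly within 1.5-fold for 26 genes and within 2-fold for 37, which leaves Mfap4, Dlk1 and Creb5 beyond the wider bound. The groups did not overlap in 7 of the 40 genes, against 8.65% of all tested genes. In 6 genes every knockout library lay above every control (Fap, Mfap4, Dpt, Bmp4, Pcolce2 and Anxa3), where 5.06% of all tested genes did so. In 1, F3, every knockout library lay below every control, where 3.58% did so. The 24 genes not described with full statistics had log2 fold changes of -0.24 to 0.48 and limma adjusted p of 0.241 to 0.965.

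**Figure D2:**
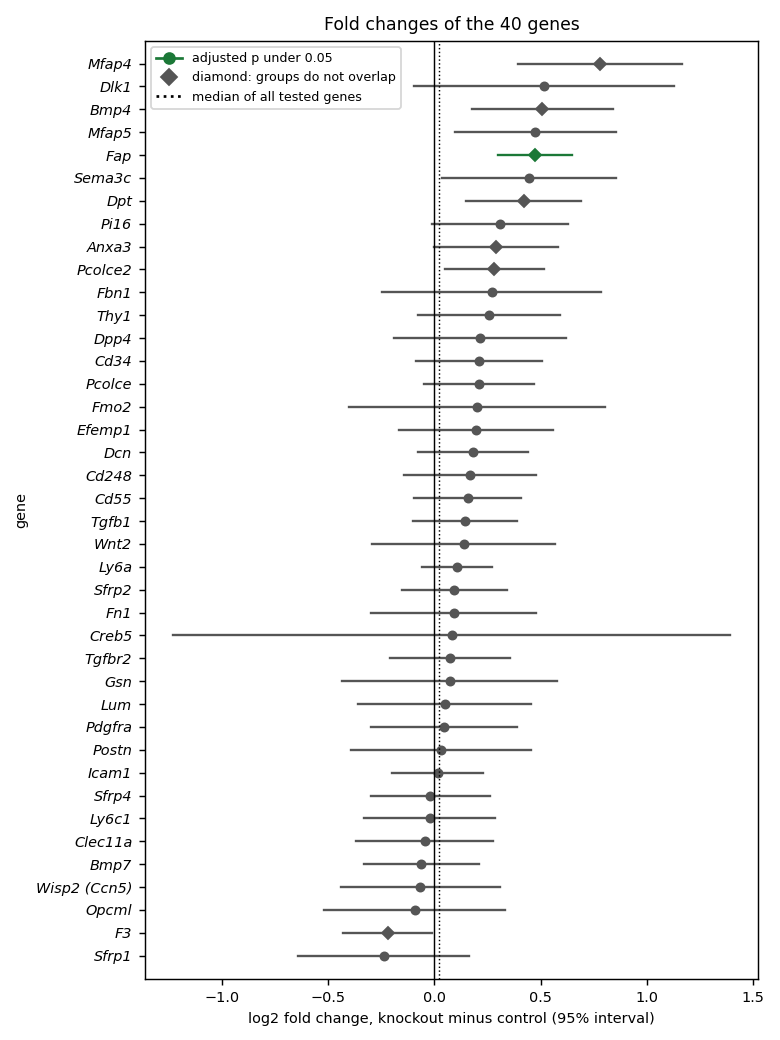
Log2 fold change of each of the 40 genes, knockout minus control, with its 95% interval from limma. Diamonds mark the 7 genes whose groups do not overlap, green the 1 gene with an adjusted p under 0.05 (Fap, 0.47), and the dotted line the median of all tested genes (0.023); the points run from -0.24 (Sfrp1) to 0.78 (Mfap4).

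Fap, fibroblast activation protein, is a membrane serine protease of stromal fibroblasts that cleaves denatured collagen. It had 556, 551, 513 and 556 scaled reads in knockout replicates 1 to 4, against 398, 364, 418 and 387 in control replicates 1 to 4. The groups lay well apart and each was tight, with knockout replicate 3 the lowest of the knockouts. Fap rose in the knockout by a factor of 1.39 (95% interval 1.23 to 1.57; log2 fold change 0.47, SE 0.077, 95% interval 0.30 to 0.65, limma adjusted p = 0.0171). A two-sided exact permutation test of its values gave p = 0.0286, the lowest value possible with 4 against 4. Any gene whose groups do not overlap has this p, so it adds nothing to the lack of overlap. The gene (NM_007986, chromosome 2, 62500936 to 62575509 in GRCm38.p6) shares no exon bases with another GENCODE M21 gene. Its log2 fold change lay between 0.39 and 0.51 in the alternatives, and the call held in 16 of 25. It did not pass without knockout replicate 2 (adjusted p = 0.0812), knockout replicate 4 (0.0829) or control replicate 4 (0.0594), without control replicates 1 and 2 together (0.135), without knockout replicates 1 and 2 together (0.163), with knockout replicate 3 alone (0.225), and with the skeletal muscle (0.0688), B cell (0.0649) or mammary (0.0509) marker score as a covariate. In knockout replicate 3, where muscle markers were low, Fap stood at 513 scaled reads. Since every knockout lay above every control, that library adds no separate support. The muscle score largely follows genotype, so the fit with it cannot separate the 2. The part of muscle in the Fap difference was not tested.

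**Figure D3:**
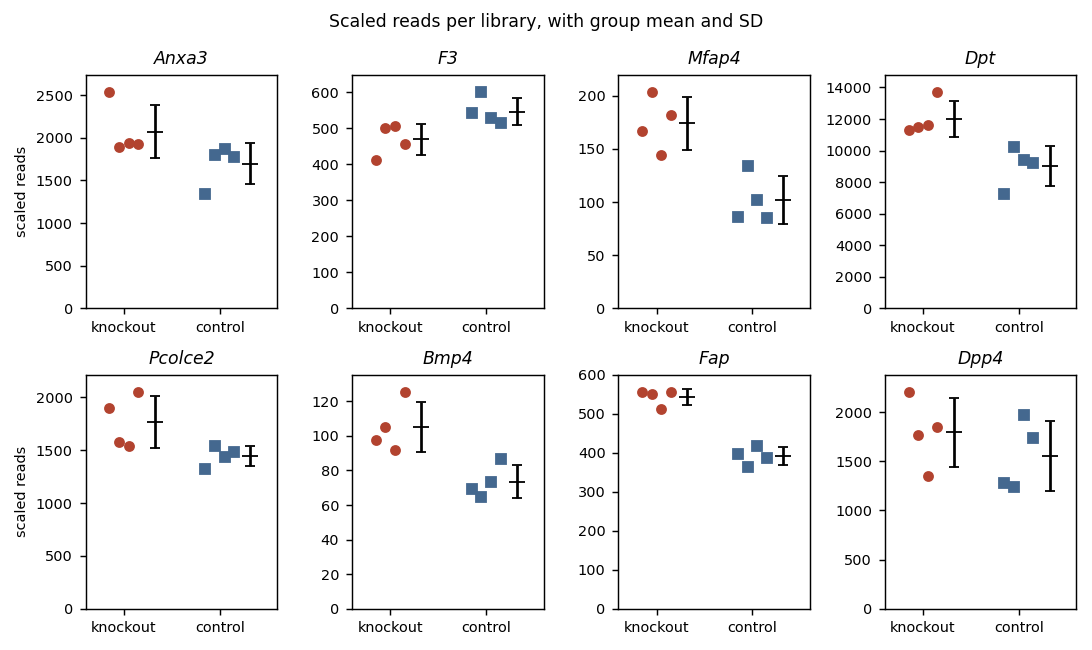
Scaled reads per library (points) with the group mean and SD (bars) for the 7 genes whose groups do not overlap and for Dpp4, whose groups do; axes start at 0. Fap lies at 513 to 556 in knockouts and 364 to 418 in controls, and Dpp4 at 1354 to 2204 in knockouts and 1240.4 to 1967 in controls.

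Of the 7 genes whose groups did not overlap, 4 had an entry in the RefSeq promoter table of GRCm38.p6. Fap, which was called, had none. The windows of these 4 genes from 250 bases before to 50 bases after the annotated start are shown. They were chosen for the lack of overlap only, and none of the 4 passed the limma test. Capitals mark matches, on either strand, to the letters of the TATA box (TATAAA), the CCAAT box (CCAAT), the GC box (GGGCGG), the AP-1 site (TGANTCA) and a SMAD-binding site (CAGACA). No marked matches overlap.
Dpt (chr1:164796413-164796712, plus strand): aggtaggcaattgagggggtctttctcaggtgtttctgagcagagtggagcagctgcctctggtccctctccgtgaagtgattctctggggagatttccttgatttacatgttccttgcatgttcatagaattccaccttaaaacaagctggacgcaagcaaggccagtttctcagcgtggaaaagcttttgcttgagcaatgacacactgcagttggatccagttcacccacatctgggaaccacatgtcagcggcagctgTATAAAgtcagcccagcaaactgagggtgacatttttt
Bmp4 (chr14:46390620-46390919, minus strand): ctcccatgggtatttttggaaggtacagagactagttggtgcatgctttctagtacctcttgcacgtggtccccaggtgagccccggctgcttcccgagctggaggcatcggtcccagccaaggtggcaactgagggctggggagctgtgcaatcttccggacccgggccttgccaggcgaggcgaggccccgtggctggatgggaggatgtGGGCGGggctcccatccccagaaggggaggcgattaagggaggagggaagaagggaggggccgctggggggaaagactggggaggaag
Pcolce2 (chr9:95637378-95637677, plus strand): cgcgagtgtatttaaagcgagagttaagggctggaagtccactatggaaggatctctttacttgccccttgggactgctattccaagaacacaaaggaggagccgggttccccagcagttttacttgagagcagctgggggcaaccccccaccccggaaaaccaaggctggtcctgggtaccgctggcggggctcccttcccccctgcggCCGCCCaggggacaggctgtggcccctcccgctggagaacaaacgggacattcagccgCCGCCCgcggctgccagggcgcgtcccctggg
F3 (chr3:121723287-121723586, plus strand): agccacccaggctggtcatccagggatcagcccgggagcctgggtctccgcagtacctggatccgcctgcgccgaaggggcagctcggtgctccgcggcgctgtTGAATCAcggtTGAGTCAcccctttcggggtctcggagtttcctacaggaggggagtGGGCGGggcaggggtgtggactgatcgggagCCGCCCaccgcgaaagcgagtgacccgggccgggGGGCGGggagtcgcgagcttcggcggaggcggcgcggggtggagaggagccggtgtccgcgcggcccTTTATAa
The window of Dpt held a TATAAA at bases 263 to 268, just after the annotated start, and no other motif searched. Its GC content was 48.7%, with 4 CG pairs. The windows of Bmp4 (64% GC), Pcolce2 (63.7%) and F3 (70.3%) were richer in G and C and held 1, 2 and 3 matches to GGGCGG. F3 alone of the 4 held TGANTCA, at bases 105 to 111 and 116 to 122, and it also held a TATAAA on the reverse strand at bases 294 to 299. No CCAAT box and no SMAD-binding site was in the 4 windows. Of all 32851 promoter windows of the table, 13.6% held the TATA box, 37.4% the CCAAT box, 35.7% the GC box, 7.81% the AP-1 site and 21.0% the SMAD-binding site.

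All 11 genes of matrix proteins and their assembly had a positive log2 fold change (median 0.21), and none passed the test. With the skeletal muscle marker score as a covariate 7 of the 11 were positive (median 0.075), and with knockout replicate 3 alone 5 were (median -0.022). Muscle markers were above every control in knockout replicates 1, 2 and 4, so the fit with their score cannot separate muscle from genotype. In 3 of them, Mfap4, Dpt and Pcolce2, the groups did not overlap. In 5.06% of all tested genes every knockout likewise lay above every control. Mfap4, a microfibril-associated glycoprotein of elastic fibres, had 166, 204, 145 and 182 scaled reads in knockout replicates 1 to 4, against 85.9, 134, 102 and 85.1 in control replicates 1 to 4. Every knockout exceeded every control, of which replicate 2 was the highest. Its fold change was the largest of the set (log2 fold change 0.78, SE 0.17, 95% interval 0.40 to 1.17, limma adjusted p = 0.0631), and it was called without knockout replicate 3 (adjusted p = 0.0359) or control replicate 2 (0.02598) and with DESeq2 (0.004696). The gene (NM_029568, chromosome 11, 61485431 to 61488708) shares 89 exon bases with Mapk7 on the opposite strand, and reads there cannot be told apart without strand. Exons of Pdgfra, Cd34, Dpp4, Pi16, Cd55, Icam1, Fn1 and Sfrp2 share 102 to 511 bases with antisense genes in the same annotation, and those of Anxa3 and Creb5 share 112 and 164 with genes on their own strand.

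Dpt, which binds decorin and promotes collagen fibril formation, had 11278, 11485, 11630 and 13719.7 scaled reads in knockout replicates 1 to 4, against 7270.4, 10242, 9395 and 9232 in control replicates 1 to 4. Knockout replicate 4 stood above the other knockouts and control replicate 1 below the other controls (log2 fold change 0.42, SE 0.12, 95% interval 0.15 to 0.69, limma adjusted p = 0.145). With DESeq2 it was called (adjusted p = 0.0351). Pcolce2, which enhances the trimming of procollagen, had 1895, 1582, 1541 and 2049 scaled reads in knockout replicates 1 to 4, against 1320.2, 1537, 1435 and 1484 in control replicates 1 to 4. The groups were separated, but narrowly (log2 fold change 0.28, SE 0.10, 95% interval 0.051 to 0.51, limma adjusted p = 0.2501). Its paralogue Pcolce overlapped between groups, at 2630.1 to 3639 in knockouts and 2393 to 2823 in controls, and shares exon bases with Fbxo24.

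Dcn had 22394, 19350, 17826 and 22930.5 scaled reads in knockout replicates 1 to 4, against 17620.5, 19831, 17123 and 17962 in control replicates 1 to 4. Knockout replicates 1 and 4 were the highest libraries, and the other knockouts lay among the controls (log2 fold change 0.18, SE 0.12, 95% interval -0.078 to 0.44, limma adjusted p = 0.523). Fn1, which encodes fibronectin, had 21884, 15730, 11869.7 and 17094 scaled reads in knockout replicates 1 to 4, against 13819.8, 14254, 16389 and 16854 in control replicates 1 to 4. Knockout replicates 1 and 3 were the highest and the lowest of all 8 (log2 fold change 0.09, SE 0.17, 95% interval -0.30 to 0.48, limma adjusted p = 0.855), and the sign turned without knockout replicate 1 (-0.053). Among the other matrix genes, Mfap5, a microfibril protein of the elastic fibre, lay at 2004 to 2499.8 in knockouts and 1097 to 2028 in controls (log2 fold change 0.48, limma adjusted p = 0.241), and its groups overlapped by 1 control. Fbn1, the microfibril backbone fibrillin-1, lay at 5493 to 11109.7 in knockouts and 4921 to 8176 in controls. It shares 2442 exon bases with Gm9913 on the opposite strand. Efemp1, a fibulin of the extracellular matrix, lay at 1905 to 3364 in knockouts and 2149.97 to 2401 in controls, the proteoglycan lumican (Lum) at 1798 to 3091 in knockouts and 1808 to 2840.1 in controls and periostin (Postn), a matricellular protein of fibroblasts, at 3047 to 5811 in knockouts and 3108 to 4502 in controls. In Efemp1, Fn1, Lum and Postn the lowest library of all was knockout replicate 3.

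Genes of Dpp4+ interstitial progenitors did not pass the test. Of 9, 7 had a positive log2 fold change (median 0.16). In 1, Anxa3, every knockout lay above every control, where 5.06% of all tested genes did so. With the skeletal muscle marker score, which largely follows genotype, as a covariate 5 of the 9 were positive (median 0.014). With knockout replicate 3 alone 3 were (median -0.17). Dpp4, a surface dipeptidase, had 2204, 1772, 1354 and 1844 scaled reads in knockout replicates 1 to 4, against 1275, 1240.4, 1967 and 1732 in control replicates 1 to 4. The 2 lowest values were control replicates 1 and 2, and knockout replicate 3 lay below control replicates 3 and 4 (log2 fold change 0.21, SE 0.18, 95% interval -0.19 to 0.62, limma adjusted p = 0.638). Without control replicates 1 and 2 the log2 fold change of Dpp4 was -0.063, and without any 1 library it lay between 0.11 and 0.34. Pi16 had 14499.5, 12795, 11348 and 15248 scaled reads in knockout replicates 1 to 4, against 9210.4, 9691, 13449 and 11342 in control replicates 1 to 4. Knockout replicates 4 and 1 were the highest, while control replicate 3 exceeded knockout replicates 2 and 3 (log2 fold change 0.31, SE 0.14, 95% interval -0.012 to 0.63, limma adjusted p = 0.366). Without control replicates 1 and 2 the log2 fold change of Pi16 was 0.12. Anxa3, an annexin used to mark these progenitors, had 2538, 1888, 1941 and 1925 scaled reads in knockout replicates 1 to 4, against 1343, 1795, 1871 and 1777 in control replicates 1 to 4. Knockout replicate 1 was far above the rest, and the lowest knockout exceeded the highest control by little (log2 fold change 0.29, SE 0.13, 95% interval -0.0013 to 0.58, limma adjusted p = 0.347). The log2 fold change of Anxa3 was 0.19 without knockout replicate 1 and 0.18 without control replicate 1.

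Sema3c, a secreted semaphorin, lay at 1329 to 2293 in knockouts and 988 to 1601 in controls (log2 fold change 0.45, limma adjusted p = 0.305). Cd55, which protects cells from complement, lay at 1124 to 1487 in knockouts and 1066 to 1363 in controls. The ligand genes were lower in level: Wnt2 lay at 152 to 276 in knockouts and 141 to 214 in controls and Bmp7 at 103 to 139.6 in knockouts and 121 to 128 in controls, and the adhesion protein gene Opcml at 99.5 to 174 in knockouts and 125 to 153 in controls. Creb5 varied most of the 40 genes, with 116, 40.3, 11.1 and 43.9 scaled reads in knockout replicates 1 to 4, against 38.1, 22.1, 58.8 and 37.6 in control replicates 1 to 4. Both the highest and the lowest value came from knockouts, and the 95% interval of its log2 fold change ran from -1.23 to 1.39. In Wnt2, Bmp7, Opcml, Cd55, Sema3c and Creb5, as in Dpp4 and Anxa3, knockout replicate 1 was the highest library.

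Surface markers of adipose stromal progenitors overlapped between genotypes in all 7 genes. Pdgfra, the receptor that defines the stroma, had 2335, 1689, 1478 and 2438 scaled reads in knockout replicates 1 to 4, against 1931, 1748, 1835 and 2022 in control replicates 1 to 4. Knockouts spread on both sides of the controls (log2 fold change 0.046, SE 0.15, 95% interval -0.30 to 0.39, limma adjusted p = 0.922). The sign of Pdgfra turned in 4 of 25 alternatives. Cd34, a sialomucin of progenitors and endothelium, had 5571, 4528, 4525 and 5492 scaled reads in knockout replicates 1 to 4, against 3557, 3924, 4986 and 5006 in control replicates 1 to 4. Control replicates 1 and 2 were the lowest and control replicates 3 and 4 lay among the knockouts (log2 fold change 0.21, SE 0.13, 95% interval -0.085 to 0.51, limma adjusted p = 0.513). The log2 fold change of Cd34 was 0.12 without control replicate 1 and 0.0023 without control replicates 1 and 2. The 9 endothelial markers, which Cd34 accompanies in vessels, all had a negative log2 fold change (median -0.14) and summed to 15224 to 17327 in knockouts and 17462 to 20226 in controls. Cd248, the stromal protein endosialin, lay at 3590.5 to 5082 in knockouts and 3500.5 to 4652 in controls, and Thy1, a glycolipid-anchored antigen, at 2225 to 2684 in knockouts and 1493 to 2542 in controls. Ly6a lay at 4192 to 4597 in knockouts and 3744 to 4323 in controls, and Ly6c1 lay at 1129 to 1282 in knockouts and 891 to 1436 in controls. Dlk1 had 44.2, 34.3, 31.4 and 38.4 scaled reads in knockout replicates 1 to 4, against 27.8, 42.3, 19.6 and 18.1 in control replicates 1 to 4. Control replicate 2 reached knockout levels, and at these low values the interval was wide (log2 fold change 0.51, SE 0.27, 95% interval -0.097 to 1.13, limma adjusted p = 0.437).

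Icam1 and F3, which mark the cells downstream of Dpp4+ progenitors, differed in pattern. Icam1, an adhesion molecule, had 1031, 1053, 1062 and 1053 scaled reads in knockout replicates 1 to 4, against 1199.7, 888, 1119 and 979 in control replicates 1 to 4. The knockouts were nearly identical and lay inside the range of the controls (log2 fold change 0.015, SE 0.096, 95% interval -0.20 to 0.23, limma adjusted p = 0.962), and the sign turned in 9 of 25 alternatives. F3, the receptor that starts blood clotting, had 413, 502, 506 and 456 scaled reads in knockout replicates 1 to 4, against 542, 602, 529 and 514 in control replicates 1 to 4. Each knockout lay below the lowest control, by little in replicates 2 and 3 (log2 fold change -0.22, SE 0.093, 95% interval -0.43 to -0.013, limma adjusted p = 0.316). Its log2 fold change was negative in all 25 alternatives and called in none. Clec11a, a secreted growth factor, and Fmo2, a flavin monooxygenase, mark the same F3+ cells. Clec11a lay at 108 to 144 in knockouts and 109.7 to 152 in controls. Fmo2 lay at 305 to 832 in knockouts and 394 to 533 in controls, with knockout replicate 1 the highest and knockout replicate 3 the lowest of all libraries.

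Among secreted regulators of WNT and BMP signalling, Bmp4 was apart between the groups. It had 97.6, 105, 92.0 and 125 scaled reads in knockout replicates 1 to 4, against 69.3, 64.4, 73.5 and 86.6 in control replicates 1 to 4. All knockouts exceeded all controls (log2 fold change 0.51, SE 0.15, 95% interval 0.17 to 0.84, limma adjusted p = 0.1498), and the log2 fold change lay between 0.33 and 0.59 over the alternatives, none of which called it. Bmp4 shares 89 exon bases with Gm15217 on the opposite strand. The frizzled-related WNT antagonists did not separate: Sfrp1 lay at 104 to 172 in knockouts and 132 to 186 in controls, Sfrp2 at 1386 to 1635 in knockouts and 1205 to 1724 in controls and Sfrp4 at 605 to 817 in knockouts and 567 to 762 in controls. Wisp2, a matricellular protein secreted by adipose precursors, lay at 163 to 223 in knockouts and 159 to 269 in controls. Control replicate 2 was the highest library for Sfrp1, Sfrp2 and Wisp2.

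The TGF-beta genes of the set overlapped between groups. Tgfb1, the ligand, had 1036, 1054, 1148 and 1343 scaled reads in knockout replicates 1 to 4, against 1015, 885, 1126 and 1119 in control replicates 1 to 4. Knockout replicate 4 was the highest and control replicate 2 the lowest (log2 fold change 0.14, SE 0.11, 95% interval -0.10 to 0.39, limma adjusted p = 0.595). The log2 fold change of Tgfb1 was 0.065 without knockout replicate 4, 0.07 without control replicate 2 and 0.022 without control replicates 1 and 2. Tgfbr2, the receptor that binds the ligand first, lay at 5530.1 to 7554 in knockouts and 5204 to 7273 in controls. Gsn, which is made by stromal cells and adipocytes alike, lay at 143453 to 177779 in knockouts and 114468 to 170582 in controls, with control replicate 1 apart at the low end.

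The levels of the 40 genes differed by library within each genotype. Knockout replicate 1 was the highest library for 19 of the 40 genes and knockout replicate 4 for 12, while knockout replicates 2 and 3 were so for 1 each. Knockout replicate 3 was the lowest library for 10 and control replicate 1 for 11. As log2 deviations from each gene's mean over 8 libraries, the median of the 40 genes was 0.26, -0.0078, -0.10 and 0.20 in knockout replicates 1 to 4, against -0.12, -0.05, -0.053 and -0.013 in control replicates 1 to 4. The median of the 9 Dpp4+ progenitor genes was 0.43, 0.079, -0.24 and 0.14 in knockout replicates 1 to 4, against -0.26, -0.31, 0.12 and -0.0095 in control replicates 1 to 4. The median of the 11 matrix genes was 0.25, -0.0025, -0.11 and 0.37 in knockout replicates 1 to 4, against -0.19, -0.018, -0.16 and -0.078 in control replicates 1 to 4. Without knockout replicate 1 the median log2 fold change of the 40 genes was 0.087 (27 positive), without knockout replicate 4 it was 0.097 (29 positive), against 0.15 with all libraries. The median of the matrix genes was 0.14, 0.34 and 0.13 without knockout replicate 1, 3 or 4. The median of the Dpp4+ progenitor genes was 0.32 without knockout replicate 3 and 0.30 without control replicate 3, and 5 of these 9 genes were positive without knockout replicate 1. Since genes of a library share its cells, the positive signs are not independent observations. With knockout replicate 3 alone set against the controls, 19 of the 40 fold changes were positive and their median was -0.047, against 36 and 0.24 without that library. Skeletal muscle markers were low in knockout replicate 3 and high in knockout replicates 1, 2 and 4, and with their score as a covariate the median was 0.034, with 25 positive. With the B cell score it was 0.15 with 36 positive, and with the mammary score 0.10 with 30 positive. Knockout replicate 2 had muscle markers nearly as high as knockout replicate 1, and its median over the 40 genes was -0.0078. The muscle score largely follows genotype, so the fit with it cannot separate muscle from genotype. The part of muscle in these differences was not tested.

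**Figure D4:**
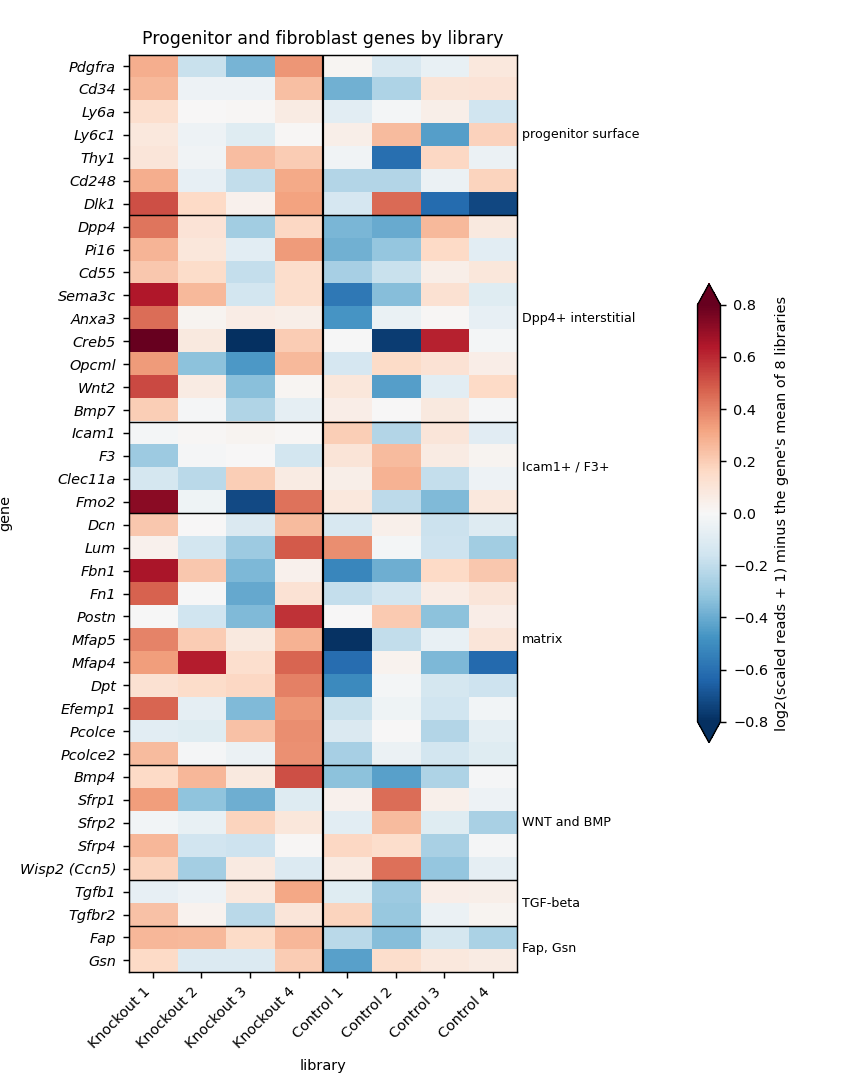
Each gene's log2(scaled reads + 1) minus its mean over the 8 libraries, by library (columns, knockouts left of controls) and by role (blocks of rows); red is above and blue below the mean. Knockout replicates 1 and 4 are above the mean for most genes (median 0.26 and 0.20). Knockout replicate 3 (-0.10) is below it for most genes and above it for others, among them Thy1, Pcolce, Clec11a, Sfrp2, Dpt, Fap and Mfap4.

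Control replicates 1 and 2 have the sample numbers 518 and 517 in their titles, and the other 6 libraries have 356 to 361. Both were below control replicates 3 and 4 in 11 of the 40 genes (27.5%, near the 24.7% of all tested genes). These were Cd34, Cd248, Dpp4, Pi16, Cd55, Sema3c, Fbn1, Fn1, Mfap5, Bmp4 and Tgfb1. They were both above control replicates 3 and 4 in 7 (17.5%, against 14.5%), which were Dlk1, F3, Clec11a, Lum, Sfrp2, Sfrp4 and Wisp2. Against control replicates 3 and 4 alone, the Dpp4+ progenitor genes had a median log2 fold change of 0.011 with 5 of 9 positive, and the matrix genes one of 0.23 with 9 of 11 positive. What the numbers stand for is not given in the labels.

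Related genes outside the set were read from lists of the same pathways. Of all tested genes 1.28% were called as higher in the knockout, and in 5.06% every knockout lay above every control. Of 12 other elastic fibre and microfibril genes all had a positive log2 fold change (median 0.29), and in 5 (Eln, Fbln1, Fbln5, Efemp2 and Loxl1) the groups did not overlap. The 1 called was Efemp2, the fibulin-4 gene needed for elastic fibre assembly, with 690.4, 615, 699 and 768 scaled reads in knockout replicates 1 to 4, against 515, 537, 496 and 519.9 in control replicates 1 to 4. Every knockout exceeded every control, and Efemp2 rose (log2 fold change 0.42, SE 0.084, 95% interval 0.23 to 0.61, limma adjusted p = 0.0413). The call held in 8 of 25 alternatives; of those leaving out 1 library, only the omission of knockout replicate 3 kept it (limma adjusted p 0.0569 to 0.152 in the other 7). All 9 other small leucine-rich proteoglycans had positive fold changes as well (median 0.20), with none called. In 2 of them (Bgn and Prelp) the groups did not overlap. Prelp, which anchors basement membranes to connective tissue, had the smallest p, at 5816 ± 565 scaled reads in knockouts and 4168 ± 932 in controls (SD, n = 4 each), with a log2 fold change of 0.51 (limma adjusted p = 0.178). Of 10 other genes of Dpp4+ progenitors all 10 were positive (median 0.19), and 1 was called. This was Uchl1, a ubiquitin hydrolase known best from neurons, with 158, 132, 111 and 139 scaled reads in knockout replicates 1 to 4, against 83.5, 92.4, 73.9 and 75.8 in control replicates 1 to 4. Every knockout exceeded every control, and Uchl1 rose (log2 fold change 0.72, SE 0.14, 95% interval 0.40 to 1.04, limma adjusted p = 0.0414). Its call held in 8 of 25 alternatives, and of those with 1 library left out in the fit without knockout replicate 3 (limma adjusted p 0.0528 to 0.155 in the other 7). The median of all tested genes was 0.023. Genes of a library share its cells, so the uniform signs of these lists are not independent observations. Of the other Dpp4+ progenitor genes, knockout replicate 3 lay below the control mean in Emilin2, Limch1, Dact2, Efhd1, Il13ra1 and Timp2. It lay above that mean in Ackr3, Axl, Uchl1 and Stmn4. Among the elastic fibre genes, control replicate 1 was the lowest library for Eln, Mfap2, Fbln2, Fbln5, Lox, Loxl1, Loxl2 and Loxl3. It was not for Fbn2, Fbln1, Efemp2 and Emilin1.

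Other lists showed no common sign. Of 19 other tested genes of TGF-beta signalling 10 were positive (median 0.0084) and none was called. In 1 of them, Smad2, every knockout lay below every control. Tgfb3, a further ligand, had 443, 459, 487 and 523 scaled reads in knockout replicates 1 to 4, against 287, 419, 338 and 329.6 in control replicates 1 to 4, with every knockout above every control (log2 fold change 0.49, SE 0.12, 95% interval 0.22 to 0.75, limma adjusted p = 0.0925), and was called with DESeq2 (0.0271) and without control replicate 2 (0.0319). Of 15 other preadipocyte genes 5 were positive (median -0.053) and none was called. In 1 (Apoe) every knockout lay above every control, and in 1 (Zfp467) every knockout lay below. Zfp467, a zinc finger factor that favours adipocyte over bone fate, had the smallest p, at 577 ± 69.2 scaled reads in knockouts and 772 ± 82.2 in controls (SD, n = 4 each), with a log2 fold change of -0.42 (adjusted p = 0.103 by limma), and DESeq2 called it (0.0157). None was called among 8 other genes of F3+ cells (4 positive), where Gdf10, a BMP-family ligand, was at 906 ± 64.4 scaled reads in knockouts and 731 ± 71.7 in controls (SD, n = 4 each). Of 19 tested WNT and BMP ligands and antagonists 13 were positive (median 0.18), with none called. Bmp6, a BMP ligand, was at 221 ± 22.4 scaled reads in knockouts and 293 ± 41.5 in controls (SD, n = 4 each), with every knockout below every control. Of 12 myofibroblast and matricellular genes 5 were positive, with none called, and Ccn1, an early-response matricellular gene, had 385, 439, 331 and 372 scaled reads in knockout replicates 1 to 4, against 1241, 1495, 463 and 352 in control replicates 1 to 4. Control replicates 1 and 2 were far above the other 6 libraries, and control replicates 3 and 4 lay near the knockouts. The log2 fold change of Ccn1 was -0.96 (limma adjusted p = 0.327), -0.63 without control replicate 2 and -0.086 without control replicates 1 and 2. Of 10 matrix proteases and inhibitors 5 were positive, with none called, and Adamts2, which trims procollagens, was at 1343 ± 187 scaled reads in knockouts and 1181 ± 81.3 in controls (SD, n = 4 each). Among all tested genes 1.64% were called in either direction, and in 8.65% the groups did not overlap.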

How the data were processed

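RNA of inguinal white adipose tissue was measured in 8 libraries, 4 knockout and 4 control. TopHat version 2 (alignment to mm10) and HOMER (counting) are named in the submitters' processing notes. HOMER's version, its annotation and scaling, and whether strand was used, were not given in the sources used here. The authors deposited 1 scaled signal value per accession, in 23373 rows a file, and a single row without an accession, at 0, was dropped. In each library the values were whole multiples of 1 step (0.442 to 0.545). This held within 0.02 steps plus the rounding of the values, for 99.96 to 100% of values above 0. Dividing by the step recovered 25671837 to 32442724 reads. More multiples up to 40 were even (54.0 to 56.2%) than odd, so a step may be 1 end of a read pair.

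Symbols came from RefSeq on GRCm38.p6 for 22523 accessions and from GENCODE M21 for 128, while 721 kept their accession. Where 12 symbols had several rows, the row with the highest total was kept. Gene coordinates are RefSeq's on GRCm38.p6, the assembly underlying mm10. Transcript lengths and exon overlaps are from GENCODE M21. Genotypes were compared on log2(value + 1) by limma (3.58.1) with trended eBayes, genotype the only term, over the 14591 genes that reached 10 in 4 or more libraries, with Benjamini-Hochberg adjustment over all of them. It was tested on simulated data. Groups are called apart where every library of one lies above every library of the other. Fully described genes were 10 fixed by name and every other one that was called, did not overlap or had an absolute log2 fold change of at least 0.5. Of each pathway list the text names each called gene, or the gene with the smallest p. The members and lists were chosen with earlier results of these data known, so lists are given as counts and medians without a test. Smad7, Myh2, Cd68 and Csf1r of the lists were not analysed here.

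Alternatives were pseudocounts of 0.5 and 5, other filters, TMM, RLE and library-total scaling, edgeR (4.0.16), DESeq2 (1.42.0) and limma-voom on recovered reads, edgeR on halved reads, marker scores as covariates, and leaving out libraries. Those without knockout replicates 1 and 2 together and with knockout replicate 3 alone were chosen after seeing the data. R was 4.3.3 and Python 3.11.15.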

Additional observations from a re-analysis of the deposited data

Results flagged for a closer look

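In groups of 4 libraries, 5 of 100 groups had 1 library far from its neighbours, where chance gives about 1 in 20. Anxa3 stood at 2538 scaled reads in knockout replicate 1, against 1888 to 1941 in the other knockouts. Dpt stood at 13719.7 in knockout replicate 4, against 11278 to 11630 in the others. Fap was the lowest in knockout replicate 3, at 513, against 551 to 556. Sfrp1 stood at 186 in control replicate 2, against 132 to 140.04 in the other controls. Gsn was the lowest in control replicate 1, at 114468, against 161875 to 170582.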

How the results depend on the processing

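No paired analysis was made, because the labels give no pairing of samples between the genotypes. The count of 239 genes changed was within 1.5 times of itself under other pseudocounts, filters, scalings, edgeR and limma-voom. It was 776 with DESeq2, 111 with the B cell score, 98 without control replicates 1 and 2 together, 79 without knockout replicates 1 and 2 together and 17 with knockout replicate 3 alone, and 71 to 429 without 1 library. The count of 1 progenitor and fibroblast gene changed was 3 with DESeq2 and 0 without control replicates 1 and 2 together, without knockout replicates 1 and 2 together, with knockout replicate 3 alone, and with the muscle, B cell or mammary score. It was 0 to 2 without 1 library. The median log2 fold change of the 40 genes was 0.087 to 0.24 without 1 library.

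The sign held in every alternative for 18 of the 40 genes. Turns were not confined to the smallest folds: Fbn1 (log2 fold change 0.27) turned in 3 of 25 alternatives and Fmo2 (0.20) in 4. Icam1 was at -0.0017 with TMM, -0.0081 with RLE, -0.011 with edgeR on recovered and -0.011 on halved reads, -0.015 with DESeq2, -0.0033 with limma-voom and -0.052 with the B cell score, and at -0.061 to 0.083 without 1 library. Pdgfra was at -0.12 with the muscle score and -0.35 with knockout replicate 3 alone, and at -0.064 to 0.18 without 1 library. Fn1 was at -0.032 without control replicates 1 and 2, -0.10 without knockout replicates 1 and 2, -0.14 with the muscle score, -0.057 with the mammary score and -0.36 with knockout replicate 3 alone, and at -0.053 to 0.24 without 1 library. Dpp4 was at -0.063 without control replicates 1 and 2 and, with knockout replicate 3 alone, at -0.17, where Dcn was at -0.022 and Adamts2 at -0.038. The cause was not tested. In these fits with 1 knockout the lone library is assumed to vary like the controls.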
